A study of Mus musculus with 12 samples.

Results

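Adipogenic transcription factors are the DNA-binding proteins that turn a fat cell precursor into a fat cell and keep it one. Of the 15754 genes in the count table, 9 were chosen by name for this role, by matching each Ensembl identifier to its symbol: Pparg, Rxra, Cebpa, Cebpb, Cebpd, Klf15, Klf4, Ebf1 and Ebf2. All 9 are in the table, from which the authors had removed genes of low CPM. They were followed in mouse white adipocytes transfected with a synthetic let-7d-5p, a synthetic let-7e-5p or a negative control.

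The cells came from the epididymal fat of male wild-type C57BL/6 mice, 8 weeks old and fed chow. The stromal vascular fraction, which mixes precursors of fat cells with cells of vessels and of the immune system, was turned into fat cells in culture. All 3 groups received 10% serum, rosiglitazone (1 µM, a synthetic ligand of PPARG), insulin (850 nM), dexamethasone (1 µM, a glucocorticoid) and IBMX (250 µM, which raises cyclic AMP), so the controls received a PPARG ligand too. Mimic or control was reverse-transfected with Lipofectamine RNAiMAX on day 4 and RNA was taken on day 7. Each group had 4 libraries, and the labels do not say whether these are separate cultures or animals, or whether animals were pooled.

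Fat cell formation is known to run as a cascade. Hormonal inducers first switch on Cebpb and Cebpd, whose products switch on Pparg and Cebpa, and these last maintain each other and activate the genes of lipid storage. PPARG binds DNA as a pair with the retinoid X receptor RXRA, KLF4 acts upstream of Cebpb, KLF15 is induced by glucocorticoids, and the early B-cell factors EBF1 and EBF2 act in precursors and in adipocytes. MicroRNAs of the let-7 family lower messages whose 3' untranslated region (UTR) pairs with bases 2 to 8 of the microRNA, the seed.

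The mature sequences of both mimicked microRNAs are printed 5′ to 3′ with the seed in capitals, since they decide which messages can pair. They are RefSeq sequences on GRCm38.p6, from chr13:48536078-48536099 on the minus strand for let-7d and chr17:17830366-17830387 on the plus strand for let-7e.
mmu-let-7d-5p: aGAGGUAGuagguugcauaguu
mmu-let-7e-5p: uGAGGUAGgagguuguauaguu
Both hold the same seed. They differ by A1U, U9G and C16U, written as the let-7d base, the position from the 5′ end and the let-7e base. The complements searched on the transcript strand were CTACCTCA (8mer), CTACCTC (7mer-m8), TACCTCA (7mer-A1) and TACCTC (6mer), where each longer one holds the 6mer.

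Of the 9 factors, only Cebpd carried a 7mer or 8mer in any annotated 3' UTR. Among 3' UTRs the 6mer was sought only in the longest of a gene, where again only Cebpd carried such a site. It is a 7mer-A1 match that starts at position 37 of the 2900 bases of that UTR, at chr16:15888168-15888174 on the plus strand (GRCm38), in capitals below within the bases around it.
Cebpd: gagactctgaacgacctaTACCTCAgacc
A 7mer or 8mer thus lay in the longest annotated 3' UTR of 1 of the 9 factors, and in 2301 of 13547 genes with an annotated 3' UTR (17%). In coding sequence such a match was found in 0 of the 9, and in 2807 of 13592 genes (20.7%). The UTR searched for Pparg was 204 bases long, against a median of 1187 bases over all genes. No match says only that these letters were not in the windows searched.

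The libraries held 15071299 to 33396316 counts. Their identifiers form 2 series, here ID run 1 (replicates 1 and 2) and ID run 2 (replicates 3 and 4), whose meaning no label gives. Both runs hold 2 libraries of each group. The runs separated on the first principal component (90.7% of the variance), so each comparison was fitted with a run term. Markers of adipocytes summed to between 16723 and 18733 CPM (counts scaled to a common library size) in ID run 1 and between 3787 and 5566 CPM in ID run 2. Macrophage markers summed to 298 to 453 CPM in ID run 1 and 37.5 to 182 CPM in ID run 2. Of 12 lymphocyte markers 0 were in the table. In bulk RNA fewer cells of a type and less RNA per cell cannot be told apart. Dicer1 and Hmga2, known targets of let-7, fell with either mimic, by 0.52 and 0.84 for let-7d and by 0.45 and 0.59 with let-7e on the log2 scale.

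With let-7d, edgeR called 4 of the 9 factors changed against control at an adjusted p under 0.05, where it called 16.2% of all genes. Klf15, Cebpb and Rxra rose and Ebf2 fell, where 6.41% of all genes rose and 9.81% fell. With let-7e it called 1 of 9, Klf15, which rose, where 9.5% of all genes were called, 3.81% as higher and 5.69% as lower. The median log2 fold change of the 9 was 0.066 and 0.14 with let-7d and let-7e in turn, beside -0.0022 and -0.0019 over all genes. For let-7d it was 0.0052 for the first run and 0.18 for the second, and for let-7e 0.030 and 0.15. Both comparisons use the same 4 control libraries. Fitted within the first run, edgeR called 3 factors for let-7d (Klf15, Rxra and Ebf1) beside 14.2% of all genes tested there, and 1 for let-7e (Ebf1) beside 10.2%. Within the second run it called 1 for let-7d (Cebpb) beside 4.86% of genes, and 1 for let-7e (Cebpb) beside 1.29%. CPM are given below library by library after TMM scaling, replicates 1 and 2 first. Where libraries are said to lie above or below control within a run, 2 are set against 2. How many of all genes separate in this way was not counted, so such orders are descriptions.

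**Figure D1:**
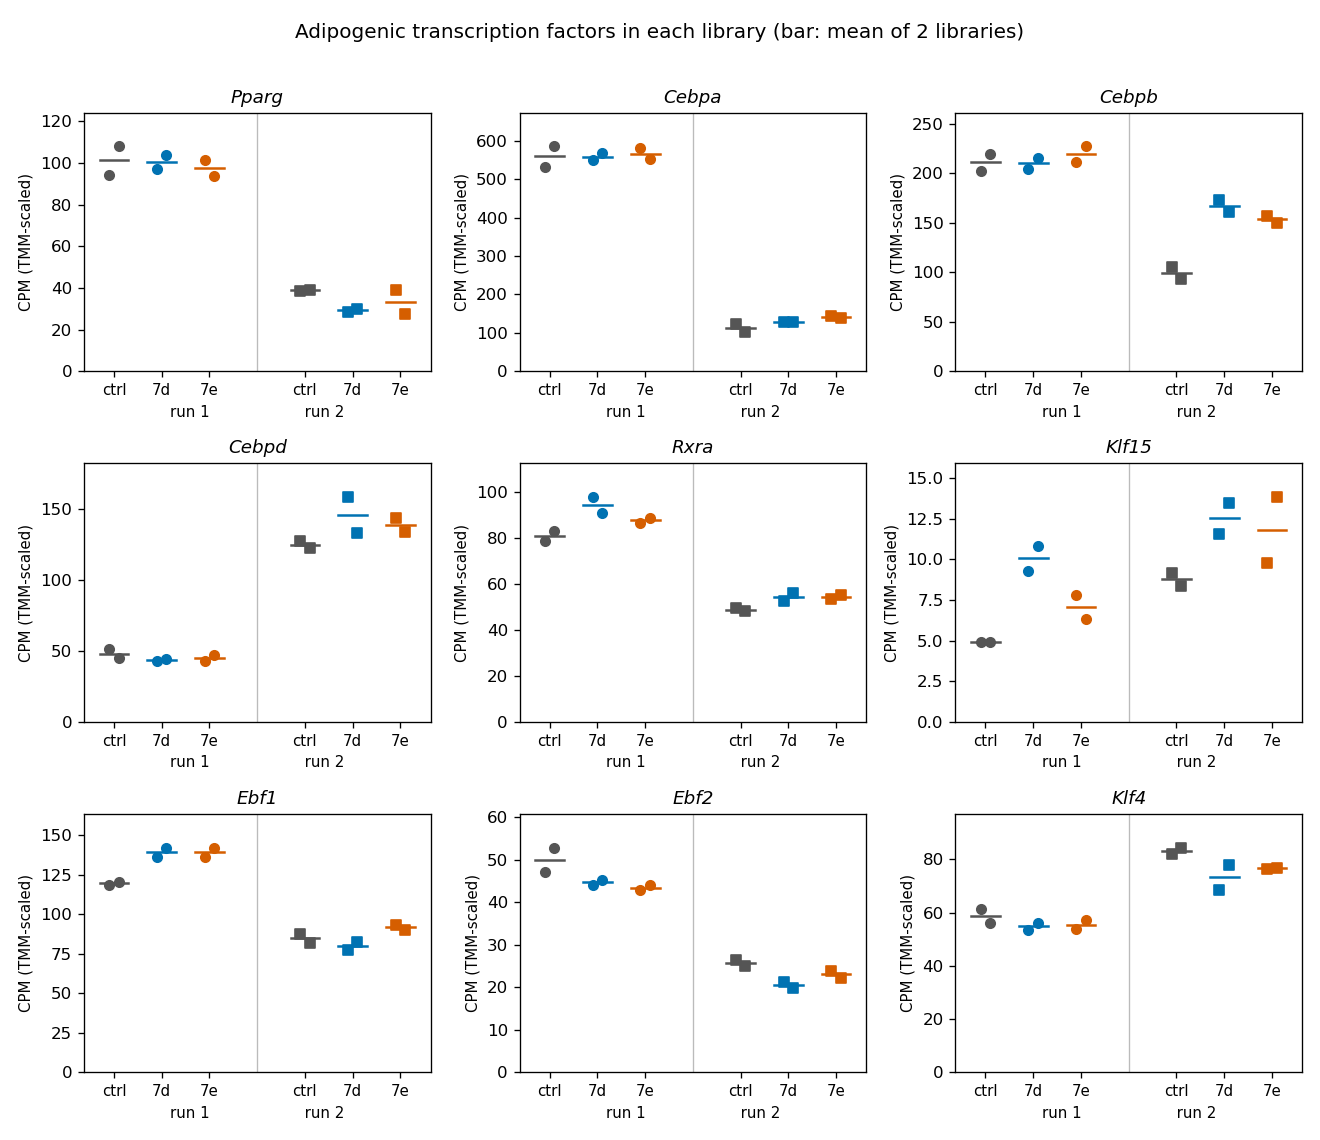
TMM-scaled CPM of each of the 9 factors in each library, 1 panel per gene, by group and ID run. Klf15 lies above control with both mimics in both runs, while Cebpb does so in ID run 2, where controls are at 93.0 and 105 CPM and mimic libraries at 150.1 to 173 CPM.

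In the fit to both runs Klf15 had the largest change of the 9 with either mimic, while in ID run 2 alone Cebpb had a larger one (0.77 against 0.53 for let-7d, 0.63 against 0.42 for let-7e). KLF15 is a zinc finger factor induced by glucocorticoids that acts on Pparg and on genes of metabolism. In the controls it stood at 4.91, 4.94, 9.17 and 8.38 CPM, with let-7d at 9.29, 10.8, 11.6 and 13.5 CPM, and with let-7e at 7.82, 6.34, 9.78 and 13.8 CPM. Every mimic library lay above both controls of its own run. Klf15 rose by 0.74 ± 0.14 (SE) on the log2 scale with let-7d (edgeR adjusted p = 0.00172), with 1.05 for the libraries of ID run 1 and 0.53 for those of ID run 2. With let-7e it was 0.46 ± 0.14 (edgeR adjusted p = 0.0456), 0.55 and 0.42 in the runs. Klf15 had the fewest counts of the 9, 71 to 358 per library. The let-7e call was lost with the replicate number as a block (edgeR adjusted p = 0.0557), in limma-voom (0.103) and without control replicate 1, 2 or 4 or let-7e replicate 1 or 4 (0.0784 to 0.184), while the let-7d call held without any single library of the 8 compared, the sense of this phrase throughout. Klf15 lies at chr6:90462576-90475238 on the plus strand (GRCm38).

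Cebpb was higher with the mimics in one of the runs. C/EBPβ is an early factor of the cascade and is also active in macrophages. In ID run 1 it stood at 202 and 219 CPM in controls, 204 and 215 CPM with let-7d and 211 and 227 CPM with let-7e. The groups overlapped there. In ID run 2 it stood at 105 and 93.0 CPM in controls, 173 and 161 CPM with let-7d and 157 and 150.1 CPM with let-7e, and the groups did not overlap.

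With let-7d, Cebpb changed by 0.36 ± 0.11 on the log2 scale over both runs (edgeR adjusted p = 0.0367). Fitted within each run the value was 0.0047 (0.974) for the first and 0.77 (0.00132) for the second. The difference between the runs in the let-7d response was 0.76 ± 0.11 (edgeR adjusted p = 0.0150), a test that called 0.241% of all genes. With let-7e the change of Cebpb was 0.33 ± 0.11 (edgeR adjusted p = 0.0788), with 0.068 in the first run and 0.63 in the second (0.00392). The difference between the runs in the let-7e response was 0.58 ± 0.11 (edgeR adjusted p = 0.0901, 0.00124 in DESeq2), and edgeR called 0.00635% of all genes there.

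Within ID run 2 the summed level of the macrophage markers, like Cebpb, was lowest in the controls. Over 18 markers this sum was 37.5 to 53.3 CPM in the controls of ID run 2, 82.5 to 182 CPM with let-7d and 72.5 to 96.8 CPM with let-7e. In ID run 1 it was 421 to 424 CPM, 401 to 422 CPM and 298 to 453 CPM. Of the 18 markers, 4 rose with let-7d (Cd163, Lyz2, Mpeg1 and, named after its value was seen, Cd68), where 6.41% of all genes rose. Each of these calls was lost without control replicate 3, control replicate 4 or let-7d replicate 3. DESeq2 called 1 of them. With let-7e 0 were called by edgeR, DESeq2 or limma-voom (1, 0 and 3 at an unadjusted p under 0.05). The median log2 fold change of the 18 was -0.12 in the first run and 1.93 in the second for let-7d, and -0.26 and 0.96 for let-7e. Fitted within the first run, edgeR called 5 of them lower for let-7d and 6 lower for let-7e, and within the second 3 higher for let-7d and 0 for let-7e (7 at an unadjusted p under 0.05). Of all genes it called 14.2% for let-7d and 10.2% for let-7e in the first run, and 4.86% and 1.29% in the second. The sum was 182 CPM in let-7d replicate 3, with Cebpb at 173 CPM, and 82.5 CPM in let-7d replicate 4, with Cebpb at 161 CPM. With let-7e the order was the other way. The sum was 72.5 CPM in let-7e replicate 3, with Cebpb at 157 CPM, and 96.8 CPM in let-7e replicate 4, with Cebpb at 150.1 CPM. Controls were also lowest for other lists in ID run 2. Genes that dexamethasone and cyclic AMP are known to induce summed to 1493 to 1604 CPM in those controls. With let-7d they summed to 1692 to 1915 CPM and with let-7e to 1702 to 1790 CPM. Precursor and fibroblast markers stood at 15213 to 15849, 17646.5 to 17667 and 16259 to 17579 CPM in turn. Smooth muscle and pericyte markers were highest in those controls, at 6895 to 7236, 5459 to 5970 and 5763 to 5878 CPM. The part of macrophage RNA or of these lists in the Cebpb result was not tested. The let-7d call of Cebpb over both runs was lost when only the let-7d and control libraries were fitted (edgeR adjusted p = 0.0726). It was also lost without control replicate 3 (0.108), control replicate 4 (0.119), let-7d replicate 3 (0.106) or let-7d replicate 4 (0.0879), where the log2 fold change ran from 0.25 to 0.33. Exons of Cebpb (chr2:167688915-167690418, plus strand) overlap Tmem189 on the other strand, which was not called (-0.062 ± 0.051 with let-7d), and whether counting used strand is not given in the sources used here.

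**Figure D2:**
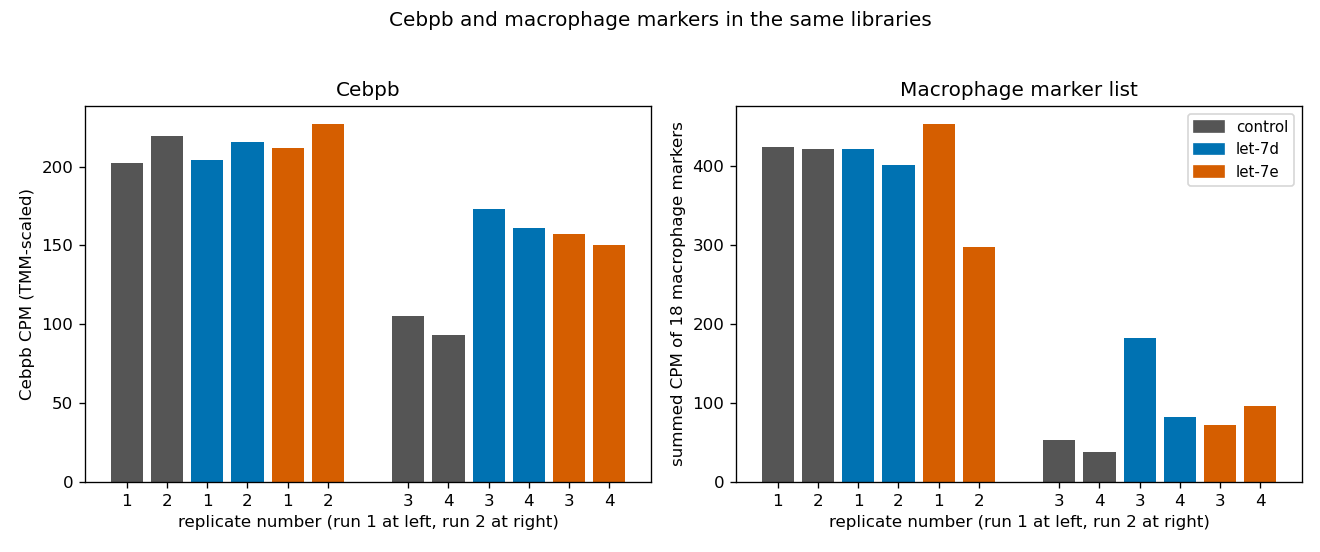
Bars give TMM-scaled CPM of Cebpb (left) and the summed CPM of the macrophage markers (right), 1 bar per library, ordered by ID run and group. In ID run 2 both are lowest in the 2 controls, and the macrophage sum reaches 182 CPM in a let-7d library, below all libraries of ID run 1.

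Of the heterodimer partners, Rxra passed the test with let-7d and Pparg did not, and the difference between these genes was not tested. PPARG, the receptor that rosiglitazone activates, was measured at 94.4, 108, 38.5 and 39.1 CPM in controls. With let-7d it stood at 97.2, 103.9, 28.6 and 29.8 CPM and with let-7e at 101.6, 93.8, 38.9 and 27.5 CPM. Let-7d lay below control in ID run 2 and overlapped it in ID run 1. The log2 fold change of Pparg was -0.19 ± 0.095 with let-7d (edgeR adjusted p = 0.184, 95% interval -0.39 to 0.0068) and -0.13 ± 0.094 with let-7e (0.450, -0.33 to 0.068), which did not pass the test. By run it was 0.0052 and -0.39 with let-7d and -0.035 and -0.22 with let-7e. The gene lies at chr6:115360951-115490399 on the plus strand.

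Rxra rose slightly with let-7d. It stood at 78.6, 82.7, 49.4 and 47.9 CPM in controls, at 97.7, 90.5, 52.6 and 56.2 CPM with let-7d and at 86.3, 88.6, 53.2 and 55.1 CPM with let-7e. Every mimic library lay above both controls of its run. Rxra rose by 0.19 ± 0.047 with let-7d (edgeR adjusted p = 0.0118), 0.23 and 0.18 in the runs, and this call held without any single library. With let-7e it was 0.14 ± 0.047 (edgeR adjusted p = 0.0859). Rxra lies at chr2:27676440-27762957 on the plus strand.

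Cebpa, which sustains the mature fat cell together with Pparg, was the most abundant factor in ID run 1. It stood at 533, 585, 124 and 103 CPM in controls, 549, 567, 128 and 128 CPM with let-7d and 579.9, 552, 144 and 138 CPM with let-7e. The mimic libraries lay above control in ID run 2 and overlapped it in ID run 1. The log2 fold change was 0.083 ± 0.067 with let-7d (edgeR adjusted p = 0.449) and 0.16 ± 0.067 with let-7e (0.152). Exons of Cebpa (chr7:35119293-35121928, plus strand) overlap those of Gm45091 on the other strand, measured at 0.614 to 0.991 CPM in controls. Whether counting used strand is not given, so reads from the shared stretch cannot be told apart.

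Cebpd, the early factor with the seed match shown above, did not pass the test with either mimic. It stood at 51.3, 44.7, 127 and 122 CPM in controls, 43.0, 44.5, 158 and 133 CPM with let-7d and 42.9, 47.4, 143 and 133 CPM with let-7e. Let-7d lay below control in ID run 1 and above it in ID run 2. The log2 fold change was 0.060 ± 0.077 with let-7d (edgeR adjusted p = 0.660, 95% interval -0.10 to 0.22) and 0.037 ± 0.077 with let-7e (0.832, -0.13 to 0.20). By run it was -0.13 and 0.24 with let-7d and -0.086 and 0.15 with let-7e. Exons of Cebpd overlap Spidr on the other strand.

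Of the early B-cell factors, Ebf2 fell with let-7d. EBF2 marks precursor cells and takes part in the brown and beige fat program. It stood at 47.2, 52.9, 26.5 and 24.9 CPM in controls, 44.0, 45.3, 21.2 and 19.8 CPM with let-7d and 42.8, 44.0, 23.9 and 22.3 CPM with let-7e. Every mimic library lay below both controls of its run. On the log2 scale Ebf2 changed by -0.24 ± 0.061 with let-7d (edgeR adjusted p = 0.0150), -0.15 and -0.31 in the runs, and -0.18 ± 0.060 with let-7e (0.0786). The let-7d call was lost without let-7d replicate 4, at -0.20 (edgeR adjusted p = 0.0516). Ebf2 lies at chr14:67233292-67430918 on the plus strand.

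Ebf1, which acts upstream of Pparg and Cebpa, stood at 119, 120.5, 87.3 and 82.0 CPM in controls. With let-7d it stood at 136, 142, 77.1 and 82.2 CPM and with let-7e at 136, 142, 93.3 and 90.2 CPM. In ID run 1 both mimics lay above control, and in ID run 2 let-7d overlapped it. Over both runs Ebf1 stood at a log2 fold change of 0.066 ± 0.059 with let-7d (edgeR adjusted p = 0.498) and 0.16 ± 0.059 with let-7e (0.0943). In ID run 1 alone it was 0.23 with either mimic (edgeR adjusted p = 0.0245 and 0.0299), and in ID run 2 it was -0.069 and 0.12. The difference between the runs was not called for Ebf1 (edgeR adjusted p = 0.155 with let-7d and 0.791 with let-7e).

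Klf4, the factor upstream of Cebpb, stood at 61.5, 56.3, 81.9 and 84.4 CPM in controls. With let-7d it stood at 53.5, 56.2, 68.5 and 78.0 CPM and with let-7e at 53.8, 57.2, 76.5 and 76.7 CPM. All let-7d libraries lay below both controls of their run, in ID run 1 by as little as 56.2 against 56.3 CPM. For Klf4 the log2 fold change was -0.14 ± 0.052 with let-7d (edgeR adjusted p = 0.0705, 0.0425 in DESeq2) and -0.10 ± 0.052 with let-7e (0.244).

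**Figure D3:**
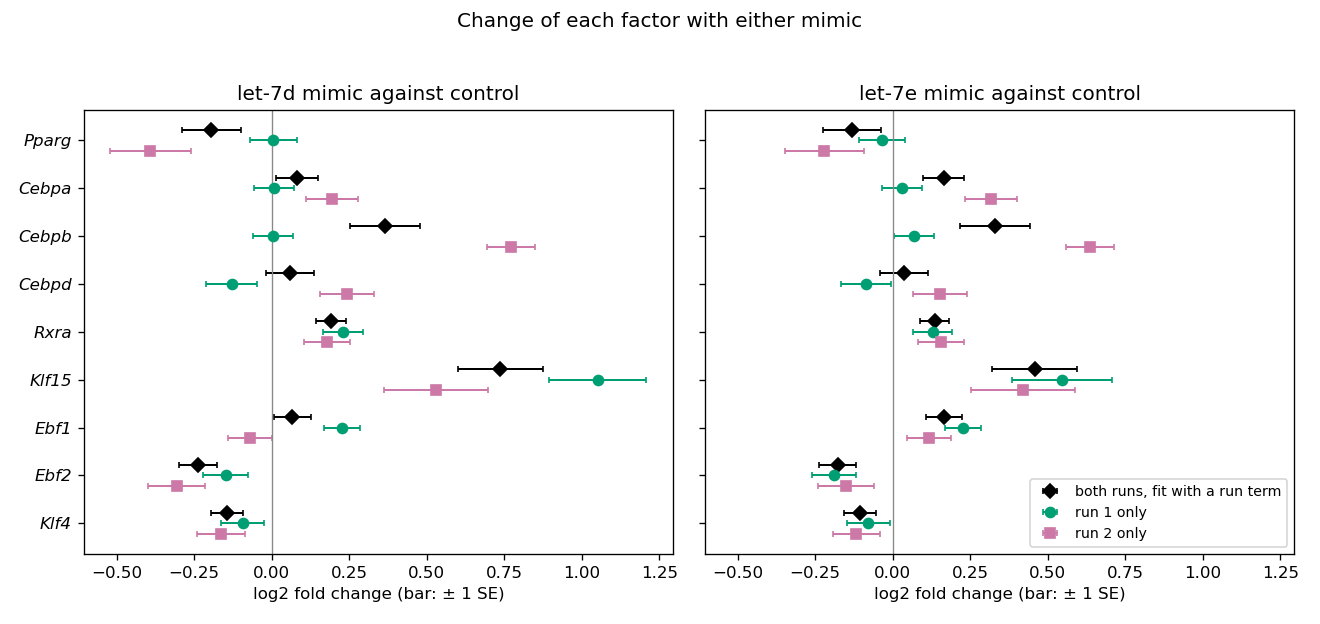
Log2 fold change against control of each factor with let-7d and let-7e, from the edgeR fit to all 12 libraries (diamonds) and to each ID run alone (circles and squares), with bars of 1 SE to either side. In the fit to all libraries Klf15 is farthest from 0 with either mimic, at 0.74 and 0.46, and the within-run values of Cebpb lie farther apart than those of Rxra.

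The mimics were compared directly to ask whether the factors respond differently to microRNAs that share a seed. By edgeR, DESeq2 and limma-voom 0 of the 9 factors were called between let-7e and let-7d, with 1, 1 and 0 at an unadjusted p under 0.05, and edgeR called 0.152% of all genes. The factor with the widest gap was Klf15, at -0.28 ± 0.13 for let-7e against let-7d (edgeR adjusted p = 0.526, 95% interval -0.55 to -0.0048). For Cebpb the difference was -0.036 (interval -0.27 to 0.20), for Rxra -0.056 (-0.16 to 0.043), for Ebf2 0.059 (-0.070 to 0.19) and for Pparg 0.063 (-0.14 to 0.26). A p that misses the threshold does not show that the mimics act alike.

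All 9 factors differed between the runs, in a comparison that called 81.7% of all genes, 41.7% as higher and 40% as lower in ID run 2. Relative to ID run 1, Cebpa stood at -2.14 ± 0.057 on the log2 scale in ID run 2, Pparg at -1.57 ± 0.078, Ebf2 at -0.99 ± 0.050, Rxra at -0.74 ± 0.039, Cebpb at -0.64 ± 0.092 and Ebf1 at -0.63 ± 0.048. The early factor Cebpd was higher by 1.58 ± 0.064, Klf15 by 0.60 ± 0.11 and Klf4 by 0.46 ± 0.043 (edgeR adjusted p up to 8.99e-05 over the 9). Of 39 measured direct targets of PPARG and C/EBPα, 38 were lower in ID run 2 and the median was -2.44. That list includes Pparg and Cebpa themselves. Of 9 adipocyte markers, all of them also in that target list, 9 were lower, with a median of -3.28. Of 13 precursor and fibroblast markers 8 were higher and 5 lower, with a median of 1.35. Their summed level was lower, at 15213 to 17667 CPM in ID run 2 against 26584 to 30873 CPM in ID run 1. What else sets the runs apart cannot be told apart from these differences.

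Levels between genes were compared as CPM per kilobase of exon. In ID run 1 the order was Cebpa (213), Cebpb (142), Pparg (33.8), Klf4 (18.5), Rxra (16.0), Ebf1 (13.6), Cebpd (12.2), Ebf2 (6.65) and Klf15 (2.64), as means over 6 libraries. The ranges of the neighbours Klf4 and Rxra, Rxra and Ebf1, and Ebf1 and Cebpd overlapped. In ID run 2 Cebpb led (93.0), followed by Cebpa (48.5), Cebpd (36.4), Klf4 (25.5), Pparg (11.4), Rxra (9.59), Ebf1 (8.75), Klf15 (3.95) and Ebf2 (3.34). There the ranges of Cebpa and Cebpd, Pparg and Rxra, Rxra and Ebf1, and Klf15 and Ebf2 overlapped. Cebpb lay below Cebpa in every library of ID run 1 and above it in every library of ID run 2.

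**Figure D4:**
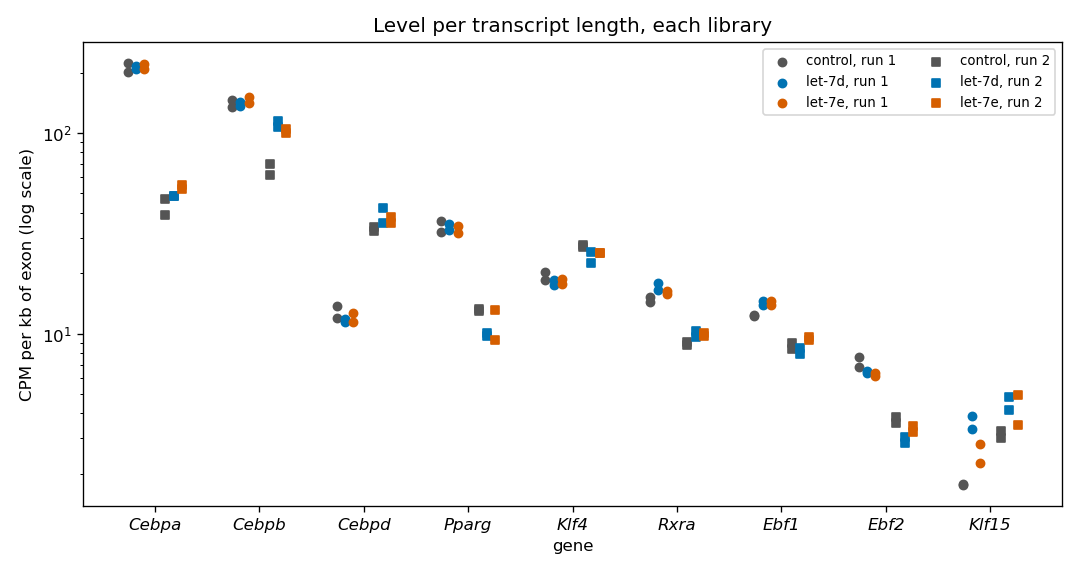
CPM per kilobase of exon for each factor in each library on a log axis, coloured by group with a marker for each ID run. Cebpa and Pparg lie lower in ID run 2, with means of 48.5 and 11.4 against 213 and 33.8, and Cebpd lies higher, with 36.4 against 12.2.

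Genes around the 9 factors were followed through lists, in a fit that called 16.2% of all genes with let-7d and 9.5% with let-7e. Of the relatives, other activators, restraining genes, coregulators and direct targets below, it called 22.2%, 14.3%, 25.8%, 25% and 23.1% with let-7d. With let-7e these shares were 11.1%, 0%, 16.1%, 8.33% and 5.13% in turn. Among 18 measured relatives of the factors, 1 rose and 3 fell with let-7d. Ebf3 rose by 0.41 ± 0.10, while Klf2, a factor that restrains Pparg, changed by -0.44 ± 0.081 and Klf6 by -0.22 ± 0.050, and these 3 calls held without any single library. The other, Rxrg (-0.63 ± 0.18), was named after its value was seen and lost its call without control replicate 2 or 3 or let-7d replicate 1, 3 or 4. With let-7e Ddit3, which encodes a C/EBP relative that blocks C/EBP binding, stood at 0.26 ± 0.077 and Klf2 at -0.26 ± 0.079. Both let-7e calls were lost with the replicate block (edgeR adjusted p = 0.0584 and 0.0539) and in 7 of the 8 fits that left out 1 library, all but those without control replicate 4 for Ddit3 and control replicate 3 for Klf2. The list had a median of -0.061 for let-7d against control and -0.052 for let-7e.

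Of 28 other activators of adipogenesis, 4 fell with let-7d. Egr2, which encodes an early factor, stood at -0.42 ± 0.082, and its call and that of Klf6 held without any single library. The others were Tcf7l1, lost without control replicate 2 or 3 or any 1 let-7d library, and Tle3, named after its value was seen and lost without control replicate 2 or 4 or let-7d replicate 1, 2 or 3. With let-7e 0 were called by edgeR, DESeq2 or limma-voom, with 7, 6 and 8 at an unadjusted p under 0.05. The list's median was -0.0086 with let-7d and -0.020 with let-7e.

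Of 31 genes that restrain adipogenesis, 1 rose and 7 fell with let-7d, and 4 of these 8 calls held without any single library. Among the 4 were the orphan nuclear receptor gene Nr4a1 (-0.58 ± 0.13) and Yap1 (-0.25 ± 0.052), a coactivator of the Hippo pathway. The gene that rose, Irf4, was named after its value was seen, and its call held only without control replicate 3 or 4. With let-7e 1 rose (Ddit3) and 4 fell (Nr4a1, Egr1, Klf2 and, named after its value was seen, Hes1), of which Nr4a1 (-0.68 ± 0.13) held its call without any single library. Without control replicate 1 or 2 or let-7e replicate 1 or 2 the calls of the other 4 were lost. The list had a median of -0.056 for let-7d and -0.0021 for let-7e.

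The coregulators that nuclear receptors such as PPARG and RXRA recruit moved both ways. Of 24, 2 rose and 4 fell with let-7d, and the calls of the coactivators Ncoa3 (-0.31 ± 0.069) and Ncoa6 (-0.24 ± 0.057) held without any single library. Those that rose were Ncoa2, lost without control replicate 1 or 2 or let-7d replicate 1, 2 or 4, and, named after its value was seen, Tbl1xr1, lost without replicate 1 of either group. Carm1 lost its call without let-7d replicate 2, and Prmt5, also named after its value was seen, without control replicate 4 or let-7d replicate 3 or 4. With let-7e Ncoa2 stood at 0.32 ± 0.081 and Ncoa6 at -0.19 ± 0.056. The let-7e call of Ncoa2 was lost without replicate 1 or 2 of either group, and that of Ncoa6 without control replicate 2 or 4 or let-7e replicate 1, 2 or 3. The median of the list was -0.071 with let-7d and 0.0087 with let-7e.

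Of 39 direct targets of PPARG and C/EBPα, 1 rose and 8 fell with let-7d, and 6 of these 9 calls held without any single library. The list includes Pparg and Cebpa themselves and all the adipocyte markers measured. The median was -0.15 with let-7d, with -0.029 in the first run and -0.34 in the second. Agpat2, an enzyme of triglyceride synthesis, stood at -0.41 ± 0.078, Me1, malic enzyme, at -0.33 ± 0.066, and Lipe, hormone-sensitive lipase, at -0.52 ± 0.11, and these held. The target that rose was the lipoprotein lipase gene Lpl (0.21 ± 0.068), a call lost without control replicate 1 or 4 or any 1 let-7d library. With let-7e 1 rose (Lpl, 0.26 ± 0.068) and 1 fell (Trarg1, a protein of glucose transporter vesicles, -0.30 ± 0.084), and the median was -0.081. The let-7e call of Lpl was lost without control replicate 1 or 4 or let-7e replicate 1, 3 or 4, and that of Trarg1 without control replicate 2, 3 or 4 or let-7e replicate 1, 2 or 4. Fitted within the first run for let-7d, edgeR called 2 targets of 39 higher and 4 lower, beside 14.2% of all genes. Within the second it called 0 of 37 higher and 14 lower, beside 4.86%. For let-7e it called 1 higher and 1 lower in each run, beside 10.2% and 1.29%.

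Markers of the other cells in these cultures were counted in the same fit, which called 16.2% of all genes with let-7d and 9.5% with let-7e. Of 13 precursor and fibroblast markers, 4 rose and 2 fell with let-7d, and 3 rose and 2 fell with let-7e. Without any single library, 2 of the let-7d calls held, those of Pdgfra, the receptor of precursor cells (0.31 ± 0.052), and Dpp4 (0.66 ± 0.12). Of the let-7e calls 2 held, those of Lum (-0.76 ± 0.14) and Thy1 (-0.46 ± 0.094). The precursor list had a median of -0.063 for let-7d in the first run and 0.31 in the second, and of 0.051 and -0.0052 for let-7e. Of 9 adipocyte markers 1, Lipe, fell with let-7d, and 0 were called with let-7e by edgeR, DESeq2 or limma-voom (2 by each at an unadjusted p under 0.05). The adipocyte list had a median of -0.029 for let-7d in the first run and -0.35 in the second. For let-7e it was -0.043 and -0.064. Within the second run edgeR called 3 of the 9 lower for let-7d, beside 4.86% of all genes. Within the first it called 1 higher, beside 14.2%. Of 13 smooth muscle and pericyte markers 4 fell with let-7d and 5 with let-7e, and in each comparison the calls of Actg2, Myh11 and Acta2 held without any single library. Actg2 fell by 0.47 and 0.60. Of 12 endothelial markers 1 fell with either mimic, the receptor Flt1, by 0.49 and 0.32. Of these 12, 10 had a log2 fold change above 0 with each mimic. Their median was 0.18 for let-7d (-0.024 in the first run and 0.35 in the second) and 0.079 for let-7e. Within the second run edgeR called 2 of them higher and 1 lower for let-7d, beside 4.86% of all genes. Of 10 mesothelial markers 0 were called with either mimic by edgeR, DESeq2 or limma-voom. At an unadjusted p under 0.05 these gave 1, 1 and 2 for let-7d and 1 by each for let-7e. Within the first run edgeR called 1 lower for let-7e (Krt19, named after its value was seen), beside 10.2% of all genes. The part of any of these in the factors' values was not tested.

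The genes whose pattern was most like that of Pparg or Klf4 were ranked by Pearson's r of log2 CPM, centred on the mean of each run, over the 12 libraries among 10969 genes. Among the nearest to Pparg were Idh3a (r = 0.969), Bcar3 (0.904), Pck1 (0.904) and Ptcd3 (0.896). Nearest to Klf4 were Nab1 (0.975), Zfp827 (0.968), Atp10a (0.967), Specc1 (0.965) and Fbln5 (0.965). These are descriptions over libraries that share their groups, scaling and depth.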

How the data were processed

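Total RNA was sequenced on an Illumina NovaSeq, per the labels. The authors deposited raw whole-number counts for each Ensembl gene after removing genes of low CPM, per the name of the table. The submitters' processing notes name STAR and GRCm38.p6. The counter and its strand setting were not given in the sources used here. A second deposited table, named RPKM, was not used, because the gene length it implies differs between libraries by a median ratio of 69.1. Each group has 4 listed libraries, though the series' design text states n = 6.

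All 15754 genes passed edgeR's filter and were tested with the edgeR (4.0.16) quasi-likelihood test in R 4.3.3, with TMM scaling, group and run terms and 8 residual degrees of freedom (6 for differences between runs). Adjusted p-values are two-sided, after Benjamini and Hochberg over all genes, and a gene was called under 0.05. The SE is the log2 fold change over the root of F. Nothing ties libraries to separate cultures or animals, so the p-values reflect a spread that may be technical. No replicate pair agreed within counting noise (chi-square per degree of freedom 2.31 to 9.92). Of the identifiers, 15736 matched a gene symbol, and 15742 were in the GENCODE vM21 annotation used for sites and exons.

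The 9 genes and the 13 lists were chosen with earlier results of these data known. Named genes were the 9, from each list the 3 called genes with the smallest p in each comparison with control, and Dicer1 and Hmga2; exceptions are marked. Same-numbered libraries deviated together from their group means (correlation 0.918 to 0.966), which includes the run difference; from group and run means the correlation was -0.157 to 0.439. Alternatives were DESeq2 (1.42.0), limma-voom (limma 3.58.1), other scaling and filters, other terms, single runs and leaving out each library. One of the genes ranked as most like Pparg is not reported here.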

Additional observations from a re-analysis of the deposited data

Results flagged for a closer look

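The response of Cebpb to let-7d differed between the ID runs, by 0.759 on the log2 scale (edgeR adjusted p = 0.0150), a test of the difference itself. All 4 mimic libraries of ID run 2 lay above both controls of that run, and the groups overlapped in ID run 1. The call was lost without let-7d replicate 1 (0.718, edgeR adjusted p = 0.0528), let-7d replicate 2 (0.798, 0.114) or let-7d replicate 3 (0.706, 0.0839).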

How the results depend on the processing

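Runs held 2 libraries per group, Klf15 had few counts, and what sets the runs apart is not known. The 4 calls with let-7d became 0 with no run term and 1 in ID run 2 alone, and ran from 2 to 4 over fits without 1 library. The 1 call with let-7e became 0 in limma-voom, with no run term and with the replicate block, and 2 with only the groups compared (Cebpb and Klf15), and ran from 0 to 2 without 1 library. The 1 called difference between runs with let-7d ran from 0 to 1 without 1 library, and the 0 with let-7e became 1 in DESeq2 and ran from 0 to 1. The replicate block changed no other call of the 9 factors. Other list genes were checked with the block only where the rule above names them. Among these it ended the let-7d calls of Cd163 (edgeR adjusted p = 0.0514) and Lyz2 (0.0523) and made one for Sgk1 (0.0248).

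Direction reversed in ID run 1 alone for Pparg (0.0052) and Cebpd (-0.13) with let-7d, Cebpd with let-7e (-0.086), and between the mimics for Pparg (-0.040), Cebpb (0.064), Cebpd (0.043) and Ebf2 (-0.042). In ID run 2 alone it reversed with let-7d for Ebf1 (-0.069) and Ddit3 (-0.086), the latter also with no run term (-0.050). Without 1 library, Cebpd ranged from -0.026 to 0.14 with let-7d and -0.013 to 0.11 with let-7e. Between the mimics Cebpb ranged from -0.11 to 0.044, Cebpd from -0.057 to 0.064, Klf4 from -0.0047 to 0.069 and Pparg from -0.031 to 0.14. The difference between runs ranged for Klf4 with let-7d from -0.18 to 0.011. With let-7e it ranged for Ebf2 from -0.038 to 0.13, Klf15 from -0.38 to 0.12, Klf4 from -0.096 to 0.025, Pparg from -0.45 to 0.050 and Rxra from -0.0056 to 0.074. The cause was not tested.

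Over all genes, the 2555 calls with let-7d became 7 with no run term and 740 in ID run 2, and the 1496 with let-7e became 0 and 197, or 844 and 874 without let-7e replicate 1 or 2. The 24 between the mimics became 122 in DESeq2, 98 with only the groups compared, 11 with library totals, 5 with the block, 1 with no run term, 2 and 1 in single runs, and 3 to 38 without 1 library. Differences between runs with let-7d went from 38 to 194 in DESeq2, 69 with library totals and 0 to 219 without 1 library. With let-7e they went from 1 to 52, 2 and 0 to 153. Scaling by library totals moved the share of higher calls from 39.5% to 57.1% with let-7d and from 62.5% to 18.2% between the mimics.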

Other observations

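Genes that dexamethasone and cyclic AMP are known to induce were followed as well, since all groups received dexamethasone and IBMX. Of 22, 4 rose and 6 fell with let-7d, and 4 rose and 5 fell with let-7e. These are 45.5% and 40.9% of the list, beside 16.2% and 9.5% of all genes. Errfi1, a feedback inhibitor of growth factor receptors, stood at -0.48 ± 0.054 with let-7d and -0.37 ± 0.053 with let-7e. Cdkn1a, which encodes a cell cycle inhibitor, stood at -0.34 ± 0.060 and -0.32 ± 0.060, and Tsc22d3, a glucocorticoid-induced leucine zipper protein, at -0.30 ± 0.052 and -0.22 ± 0.052. The kinase gene Sgk1 rose by 0.37 ± 0.068 with let-7e. The let-7e call of Tsc22d3 was lost without let-7e replicate 2 (edgeR adjusted p = 0.0550). The 4 that rose with let-7d, named after their values were seen, were Lcn2 (1.02 ± 0.23), Serpina3n (0.62 ± 0.12) and the metallothionein genes Mt1 (0.61 ± 0.16) and Mt2 (0.85 ± 0.18). The call of Mt1 was lost without control replicate 3 or 4 or let-7d replicate 3, and the other 3 held without any single library. Besides Sgk1, the genes that rose with let-7e were Lcn2, Mt1 and Mt2. There Mt2 held without any single library. Lcn2 was lost without control replicate 1, 2 or 4 or let-7e replicate 1, 2 or 3. Mt1 was lost without control replicate 1, 3 or 4 or let-7e replicate 2, 3 or 4. The list's median was -0.036 with let-7d (-0.13 in the first run and 0.079 in the second) and -0.050 with let-7e (-0.085 and -0.0096), beside -0.0022 and -0.0019 over all genes.

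Ddit3, the C/EBP relative, was higher in ID run 2 than in ID run 1 by 2.71 ± 0.066 on the log2 scale, while Cebpa was lower by -2.14 ± 0.057. Chosen after their values were seen, the coactivator genes Ppargc1a and Ppargc1b stood at -3.50 ± 0.11 and -4.23 ± 0.11 in that comparison.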
